A study of Mus musculus with 40 samples.

Results

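Of 40 genes of mature skeletal muscle, chosen by name from the contractile, calcium-handling and energy-supplying parts of the muscle fibre, 37 had a row among the 14318 genes measured in primary mammary tumors. The remaining 3, Ampd1, Ckmt2 and Smpx, were not analysed here. The 37 genes are described below in each of 39 tumors and across 8 groups. The question addressed was how much skeletal muscle RNA each tumor sample contained, which fibre type its myosins resembled, and whether these levels differed between treatments or between the 4T1- and 66cl4-based models.

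Tumors were grown in the mammary ducts of WT female BALB/c mice. The mothers were lactating when 4T1 or 66cl4 cells, mouse triple-negative mammary carcinoma lines that carried luciferase, were inoculated into the ducts. Tumor-bearing mice were left untreated or received 1 mg chitin i.p., 200 µg of an antibody against the immune checkpoint receptor PD-1 i.p., or both, and whole primary tumors were collected at 5 w p.i. for RNA-sequencing. Each of the 4 groups per model held 5 tumors, except for untreated 4T1 tumors, of which 4 were analysed (numbered 1, 2, 4 and 5). Cells were inoculated into a pair of glands, and the sources used here do not state whether the sequenced tumors came from separate mice, so that p-values measure the spread between tumors only. All groups thus shared the same host genotype, inoculation route and time of collection, and a treatment was always compared with untreated or anti-PD-1-treated tumors of the same cell line. As each model is a single cell line, the comparison of models compares these lines in these mice.

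Skeletal muscle fibres contract when myosin thick filaments pull on actin thin filaments, which is switched on by calcium released from the sarcoplasmic reticulum and sensed by the troponin complex. Fibres are typed by the myosin heavy chain they make, with Myh4 in the fastest glycolytic fibres (type IIb), Myh1 in type IIx, Myh2 in the more oxidative type IIa and Myh7 in slow fibres. Mammary glands of mice lie in the fat under the skin, next to the thin cutaneous muscle and the muscles of the body wall. In bulk tumor RNA, fewer cells of a type and less RNA per cell cannot be told apart.

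The recovered sequencing depth was 5105898 to 14800352 reads per tumor, with a median of 6590274. The deposited values are on a log2-like scale after a variance stabilizing transformation (VST) on which 6.05 stands for 0 reads, so that small counts are compressed. Levels below are therefore also given as normalized counts, meaning recovered reads over the size factor that scales each library. The mammary tumor label was checked against 5 epithelial genes, and all 5 were lower in 66cl4 (limma, median VST difference 4.18). Keratin 8 (Krt8) differed least, with mean VST values of 13.0 in 4T1 and 12.1 in 66cl4. The adhesion genes Epcam (12.4 and 7.01) and Cdh1 (11.4 and 7.19) and the keratins Krt18 (12.8 and 8.16) and Krt19 (9.83 and 7.50) differed more.

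The promoters of 3 leading members are shown because they carry the findings that follow: Acta1 and Ckm as the actin and creatine kinase of the fibre, and Myh4 as the most abundant myosin heavy chain in most tumors with muscle RNA. Each run gives the 250 bases before the RefSeq start of the gene in GRCm38.p6 (mm10), 5′ to 3′ on the strand of the gene, with every E-box (CANNTG, the core of the site bound by myogenic bHLH factors) in capitals. Acta1 lies at chr8:123891758-123894775 on the minus strand, Ckm at chr7:19411094-19421583 on the plus strand and Myh4 at chr11:67237812-67260447 on the plus strand.
Acta1 promoter (chr8:123894776-123895025, minus strand): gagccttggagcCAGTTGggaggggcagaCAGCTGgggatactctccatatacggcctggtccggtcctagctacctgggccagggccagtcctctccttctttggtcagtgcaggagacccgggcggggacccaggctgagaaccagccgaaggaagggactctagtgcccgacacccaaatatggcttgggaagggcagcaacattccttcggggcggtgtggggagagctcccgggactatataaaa
Ckm promoter (chr7:19410844-19411093, plus strand): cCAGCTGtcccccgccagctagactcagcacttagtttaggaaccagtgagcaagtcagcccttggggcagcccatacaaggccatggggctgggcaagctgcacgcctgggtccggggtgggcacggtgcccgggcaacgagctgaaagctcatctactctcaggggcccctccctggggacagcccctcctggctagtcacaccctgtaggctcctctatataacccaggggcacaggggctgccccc
Myh4 promoter (chr11:67237562-67237811, plus strand): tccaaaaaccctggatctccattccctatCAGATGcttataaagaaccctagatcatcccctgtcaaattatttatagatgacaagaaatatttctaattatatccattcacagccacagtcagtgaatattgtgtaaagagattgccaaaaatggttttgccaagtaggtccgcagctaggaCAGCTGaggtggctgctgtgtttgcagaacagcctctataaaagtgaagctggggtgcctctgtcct

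The RefSeq promoter table held 28 of the 37 members. Both strands were searched for 4 motifs. An E-box was found before 23 of the 28 genes (82.1%) and in 66.2% of all 32851 promoter windows of this length. The MEF2 consensus, the AT-rich site of the myocyte enhancer factor family, was found before 6 members (21.4%), namely Xirp2, Ttn, Pgam2, Myh1, Myh4 and Pvalb, and in 2.92% of all windows. The CArG box consensus, the site of serum response factor, was found before Acta1, Myh4, Ldb3 and Myom1 (14.3%) and in 1.47% of all windows. TATAAA was found before Myl1, Acta1, Myh1 and Myh4 (14.3%) and in 12.4% of all windows, and overlapped the MEF2 consensus in Myh1 and Myh4. These matches describe letters in the windows only.

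Muscle RNA was unevenly spread over the tumors, and most members were high in the same few tumors of different groups. Acta1, the skeletal muscle actin of the thin filament, was measured at 203, 3.13, 1669.6 and 667 normalized counts in untreated 4T1 tumors 1, 2, 4 and 5. In anti-PD-1-treated 4T1 tumors 1 to 5, it was at 217, 145, 2604, 543 and 235 normalized counts. Untreated tumor 4 and anti-PD-1-treated tumor 3 were thus the highest of their groups, followed by untreated tumor 5 and anti-PD-1-treated tumor 4. In chitin-treated 4T1 tumors, Acta1 was at 131, 186, 157, 272 and 2.49 normalized counts, and no tumor was high. In chitin + anti-PD-1-treated 4T1 tumors, it was at 103, 343, 562, 147 and 3551 normalized counts, the last being the highest Acta1 level of the study. The 4 groups overlapped.

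In untreated 66cl4 tumors 1 to 5, Acta1 was at 2.50, 6.88, 1278.5, 56.7 and 5.34 normalized counts. In anti-PD-1-treated 66cl4 tumors, it was at 8.99, 2.84, 204, 0 and 1.19. In both groups only tumor 3 had a level above 100, and most others were at a few reads. In chitin-treated 66cl4 tumors, Acta1 was at 1.18, 0.805, 17.9, 1.97 and 6.40 normalized counts, and in chitin + anti-PD-1-treated tumors at 1.68, 0.815, 1241.5, 565 and 720.5. The combination group thus held 3 tumors above 500 and 2 tumors near 0, whereas all 5 chitin-treated tumors were below 20.

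Ckm, the muscle creatine kinase that buffers ATP, followed the same tumors. In 4T1, it was at 14.2, 4.69, 389 and 163 normalized counts without treatment and at 75.8, 4.01, 1221, 253 and 64.5 with anti-PD-1. It was at 15.2, 53.7, 68.4, 60.3 and 1.25 normalized counts with chitin and at 18.8, 73.5, 140.3, 16.9 and 819.8 with chitin + anti-PD-1. The 2 tumors with the highest Ckm level were those with the highest Acta1 level, but in reverse order. In 66cl4, Ckm was at 0, 5.73, 329.7, 11.6 and 5.34 normalized counts without treatment, at 3.85, 2.84, 59.4, 2.50 and 3.58 with anti-PD-1, at 5.91, 2.42, 3.15, 5.24 and 2.13 with chitin, and at 0.840, 1.63, 411, 106 and 145 with chitin + anti-PD-1. A Ckm level above 100 was thus seen in 4 of the 20 tumors of this model.

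Myh4, the myosin heavy chain of type IIb fibres, was at 17.7, 39.1, 1058 and 300.1 normalized counts in untreated 4T1 tumors and at 57.8, 6.69, 2481, 473 and 64.5 in anti-PD-1-treated ones. It was at 21.8, 75.9, 192, 73.3 and 3.74 in chitin-treated 4T1 tumors and at 46.6, 125, 153, 14.1 and 1446 in chitin + anti-PD-1-treated ones. Every 4T1 tumor had reads for Myh4. In 66cl4, Myh4 was at 2.50, 1.15, 597, 12.9 and 2.67 normalized counts without treatment, at 1.28, 0, 105, 0 and 1.19 with anti-PD-1, at 0, 1.61, 1.58, 1.31 and 3.56 with chitin, and at 0, 2.44, 1077.5, 265 and 230.1 with chitin + anti-PD-1. It had 0 reads in 4 tumors of this model.

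Des encodes desmin, the intermediate filament that ties Z-discs together and that smooth muscle and some stromal cells also make. In 4T1, it was at 161, 39.1, 802 and 688 normalized counts without treatment, at 195, 129.8, 1935, 337 and 187 with anti-PD-1, at 231, 129, 169, 211 and 105 with chitin, and at 99.8, 321, 427, 210.0 and 2148 with chitin + anti-PD-1. In 66cl4, it was at 45.1, 34.4, 610.2, 60.5 and 65.4 without treatment, at 52.6, 40.7, 97.4, 21.3 and 33.4 with anti-PD-1, at 55.5, 37.9, 45.7, 30.1 and 45.5 with chitin, and at 52.1, 46.4, 495, 213 and 330.5 with chitin + anti-PD-1. Des was high in the same tumors, but unlike Acta1, Ckm and Myh4 it did not go below 20 normalized counts in any tumor. The 9 smooth muscle and myoepithelial genes (Acta2, Myh11, Tagln and others) summed to 6302 and 6306 normalized counts in the 4T1 tumors with the most muscle RNA, against a highest sum of 8922, in a tumor of the combination group. Both sums were above the medians of the groups of these tumors, 5023 (combination) and 3853 (anti-PD-1). The sum of 6306 was the highest of the anti-PD-1 group.

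Tpm1, Eno3, Trdn and Jph1 were left out of the summed level used to rank tumors, a choice made after their values were seen, because they differed in level or direction from the rest, as given below. The summed normalized count of the other 33 members ranged from 475 to 23733 in 4T1, a ratio of 49.9, and from 383 to 8297 in 66cl4, a ratio of 21.7. With all 37 members in the sum, these ratios were 7.31 and 3.74. The group medians of the sum were 3539 in untreated, 1774 in anti-PD-1-treated, 1828 in chitin-treated and 2745 in chitin + anti-PD-1-treated 4T1 tumors. In 66cl4, they were 448, 429, 398 and 2587 in the same order. As a share of reads, the 33 genes took from 0.00501% (untreated 66cl4 tumor 5, 95% Wilson interval 0.00446% to 0.00562%) to 0.313% (chitin + anti-PD-1-treated 4T1 tumor 5, 0.309% to 0.317%), where the intervals cover counting error only. In 66cl4 tumors at the low end, the sum stayed at 383 normalized counts or somewhat above, to which Tnni2 and Tpm2 contributed most.

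**Figure D1:**
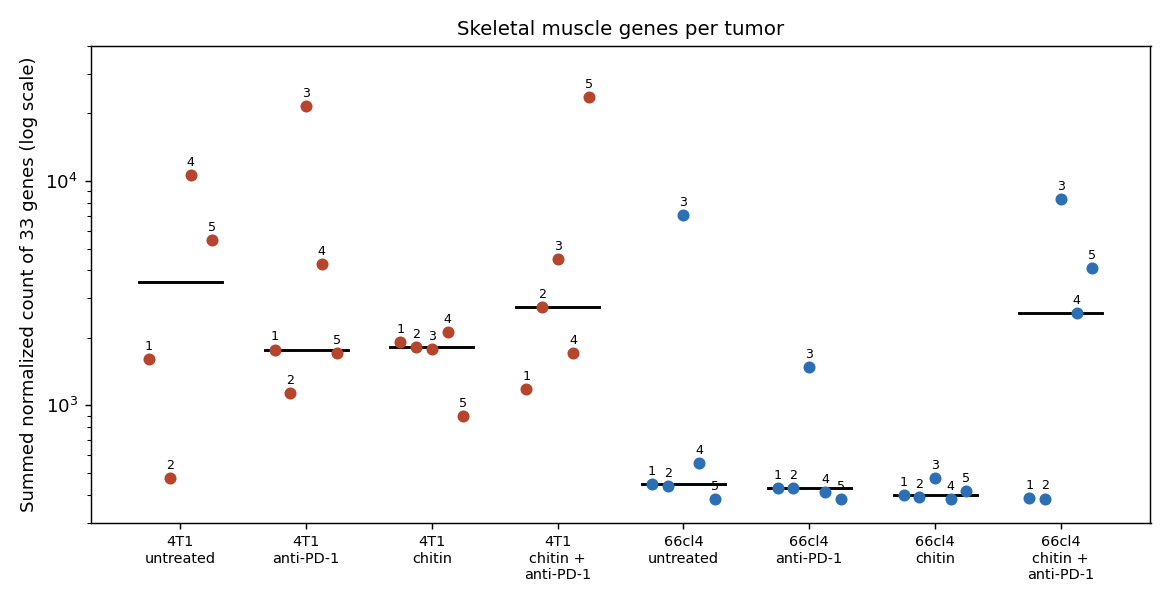
Summed normalized count of 33 skeletal muscle genes (log scale) for each of the 39 tumors by group, with the tumor number above each point and the group median as a line. In 66cl4, tumors 3 of the untreated and anti-PD-1 groups and tumors 3, 4 and 5 of the combination lie above the others, which sit between 383 and 551, and in 4T1 the highest tumors are chitin + anti-PD-1 tumor 5 (23733) and anti-PD-1 tumor 3 (21655).

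The same few tumors were highest for most members. In 4T1, 20 of the 37 members had their highest value in chitin + anti-PD-1 tumor 5, where 5.65% of all genes did so, and 16 in anti-PD-1 tumor 3 (7.38% of all genes). Tpm1 was highest in chitin + anti-PD-1 tumor 2. The members peaking in anti-PD-1 tumor 3 included Myh4, Mybpc2, Atp2a1 and Pvalb, and those peaking in chitin + anti-PD-1 tumor 5 included Myh1, Myh2, Mybpc1, Mb and Actn2. In 66cl4, 22 members were highest in chitin + anti-PD-1 tumor 3 (2.0% of all genes), 11 in untreated tumor 3 (8.46%), Myh2 and Xirp2 in chitin + anti-PD-1 tumor 5 (2.86%), and Trdn and Cox7a1 in anti-PD-1 tumor 2 (6.52%). Of the 37 members, 35, 32 and 29 were among the 3 highest values of the model in 4T1 chitin + anti-PD-1 tumor 5, anti-PD-1 tumor 3 and untreated tumor 4, and 34, 33 and 25 in 66cl4 chitin + anti-PD-1 tumor 3, untreated tumor 3 and chitin + anti-PD-1 tumor 5.

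**Figure D2:**
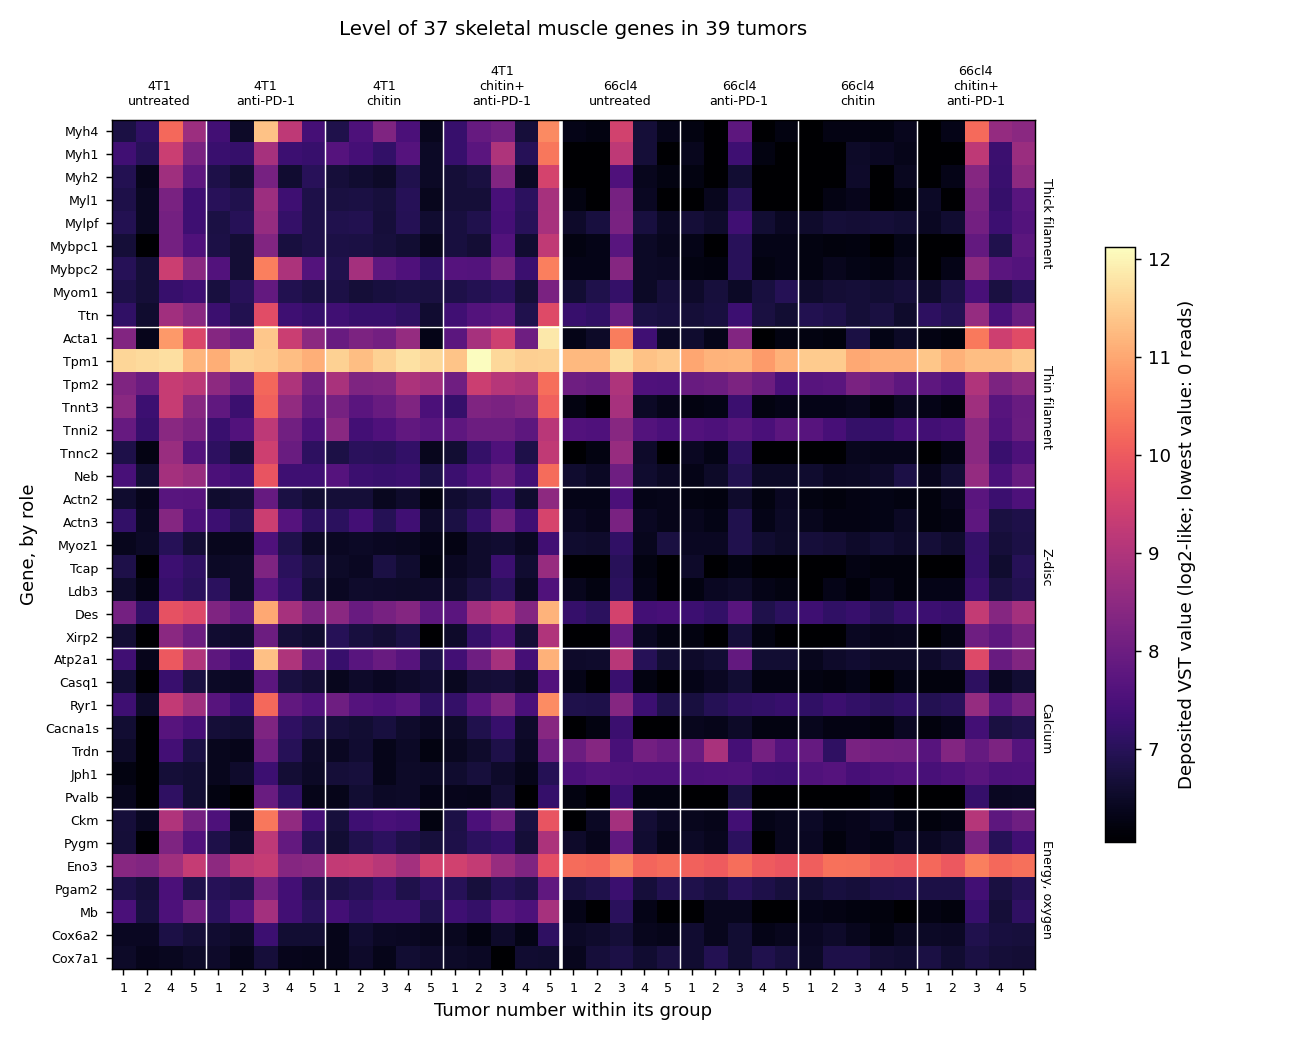
Deposited VST value (color) of 37 skeletal muscle genes (rows, by role) in 39 tumors (columns, by group and tumor number). Most rows light up in the same columns, whereas Tpm1 is high in all tumors, Eno3 and Jph1 are higher in every 66cl4 tumor than in any 4T1 tumor, and Trdn is higher in most 66cl4 tumors.

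Compared per kb of exon, the order of the members differed between samples. In chitin + anti-PD-1-treated 4T1 tumor 5, the level of Acta1 was 2456 normalized counts per kb, followed by the troponin T gene Tnnt3 at 822, Des at 709, the troponin C gene Tnnc2 at 685 and the calcium pump gene Atp2a1 at 603. In 66cl4 chitin + anti-PD-1 tumor 3, Acta1 led with 859 normalized counts per kb, and Eno3 came next with 831. In chitin-treated 66cl4 tumors, the group medians were 615 for Eno3, 435 for Tpm1, 71.9 for Tnni2 and 44.8 for Tpm2, and Acta1 was not among the 8 highest members. Eno3 and Tpm1, members that other cells also use, thus led where the fibre-restricted genes were at a few reads. They also led in some tumors with more muscle RNA. In untreated 66cl4 tumor 3, Eno3 was at 922.5 and Acta1 at 884 normalized counts per kb. In anti-PD-1-treated 4T1 tumor 4, Tpm1 was at 500 and Acta1 at 375.

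Fibre type was read from the fast myosin heavy chains in the 18 tumors with at least 100 reads over Myh4, Myh1 and Myh2, of which 13 were 4T1 and 5 were 66cl4. Myh7 of slow fibres was not analysed here. The coding sequences of the 3 genes are alike, being 90.0% (Myh4 and Myh1), 88.05% (Myh4 and Myh2) and 90.95% (Myh1 and Myh2) identical over the aligned GENCODE M21 transcripts. The longest run shared without a difference was 161, 146 and 268 bases for these pairs. Only 0.264%, 0.0% and 2.15% of 150-base windows were identical, so that most reads of this length could be assigned to 1 gene. A stretch of 60 coding bases with many differences is shown for each, from coding base 3842 of Myh4 and 3851 of Myh1 and Myh2, with the 25 positions that are not the same in all of them in capitals.
Myh4 coding stretch: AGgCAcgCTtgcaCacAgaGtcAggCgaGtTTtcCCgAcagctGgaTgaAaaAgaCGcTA
Myh1 coding stretch: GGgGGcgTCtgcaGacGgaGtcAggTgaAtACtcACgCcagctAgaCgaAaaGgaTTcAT
Myh2 coding stretch: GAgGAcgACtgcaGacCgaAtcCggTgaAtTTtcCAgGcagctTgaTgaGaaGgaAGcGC

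Myh4 had the largest share per kb of the myosin sum in 14 of the 18 tumors, Myh1 in 4 and Myh2 in 0. In chitin + anti-PD-1-treated 4T1 tumor 1, counted for Myh4, Myh4 and Myh1 had 57 reads each. Their shares per kb, 44.1% and 43.6%, differed there through exon length only. The Myh4 share ranged from 17.6% (chitin-treated 4T1 tumor 1) to 88.5% (anti-PD-1-treated 4T1 tumor 4) with a median of 52.0%, the Myh1 share from 9.63% to 71.8% with a median of 34.8%, and the Myh2 share from 1.90% to 31.5% with a median of 12.2%. The mean Myh4 share was 52.0% ± 21.6 (SD, n = 13) in 4T1 and 55.8% ± 16.0 (SD, n = 5) in 66cl4, and the ranges overlapped. Among the tumors with the most myosin reads, chitin + anti-PD-1-treated 4T1 tumor 5 (2811 reads) had 44.4% Myh4, 36.7% Myh1 and 18.9% Myh2. Anti-PD-1-treated 4T1 tumor 3 (2336 reads) had 83.2%, 11.3% and 5.56%. The 95% Wilson intervals of the Myh4 share of reads were 42.3% to 46.0% and 81.4% to 84.5%, which cover counting error only and compare these libraries.

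In 66cl4, chitin + anti-PD-1 tumor 3 (2560 reads) had 61.4% Myh4, 26.4% Myh1 and 12.2% Myh2, and untreated tumor 3 (1306 reads) had 52.3%, 40.9% and 6.85%. Chitin + anti-PD-1 tumor 5 (1361 reads) had 30.4%, 38.1% and 31.5%, the highest Myh2 share of all 18. The ratio of Mybpc1, the myosin binding protein C found mainly in slow and also in fast fibres, to Mybpc2, its fast fibre form, was also compared over the 18 tumors. Its lowest value was 0.0432 in anti-PD-1-treated 4T1 tumor 4 (19 reads against 440), and its highest 1.16 in 66cl4 chitin + anti-PD-1 tumor 5 (181 reads against 156). Next to these came 0.0556 in chitin-treated 4T1 tumor 2, where the Myh4 share was 51.2%, and 0.962 in anti-PD-1-treated 66cl4 tumor 3, where the Myh2 share was 6.25%, so that the ratio did not follow the myosin shares in all tumors.

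**Figure D3:**
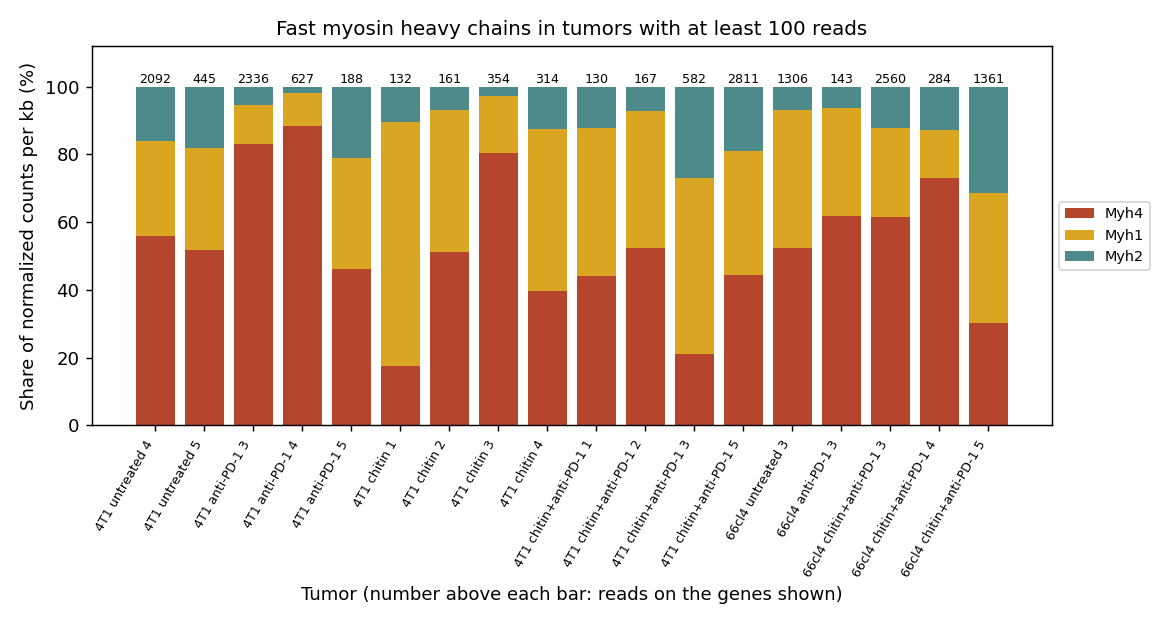
Share (%) of normalized counts per kb taken by Myh4, Myh1 and Myh2 in the 18 tumors with at least 100 reads on these genes, with the number of reads above each bar. Myh4 has the largest share in 14 tumors, and Myh2 reaches its highest share, 31.5%, in 66cl4 chitin + anti-PD-1 tumor 5.

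Slow fibre, regenerating, cardiac and atrophy genes were measured beside the members. Of 9 slow fibre genes, 3 were analysed (Tnnt1, Tnnc1 and Myh7b), and their sum was 30.0 to 90.4 normalized counts in 4T1 and 7.21 to 32.5 in 66cl4. Tnnt1, the slow troponin T, was highest at 30.3 normalized counts in 4T1 chitin + anti-PD-1 tumor 5 and at 13.2 in untreated 66cl4 tumor 3, where Tnnt3, its fast counterpart, was at 959 and 346. In 66cl4 it did not follow the members, as it was at 10.6 in chitin-treated tumor 1 and at 6.20 in chitin + anti-PD-1 tumor 3. Tnni3 was the only cardiac gene analysed of 5 and stayed at 1.56 to 27.0 normalized counts. Of 17 genes of embryonic, regenerating or denervated muscle, 4 were analysed. Myog, a transcription factor of differentiating myoblasts, reached 43.1 normalized counts in 4T1 chitin + anti-PD-1 tumor 5 and 14.1 in anti-PD-1 tumor 3, against a median of 5.24 over 4T1. It was also at 16.1 in anti-PD-1 tumor 2 and at 0.911 in untreated tumor 4, where the 33 members summed to 1140 and 10634 normalized counts, so that it did not follow the members in all tumors. Tnnt2, embryonic and cardiac troponin T, was at 450 to 3055 in 4T1 and 3.93 to 33.2 in 66cl4 and stood at 1797 in untreated 4T1 tumor 2, where Acta1 was at 3.13. Of 9 atrophy genes, 7 were analysed. Among these, Trim63, a ubiquitin ligase that is raised in wasting muscle and made by muscle in general, was at 79.3 and 74.2 normalized counts in the 4T1 tumors with the most muscle RNA (median over 4T1 9.25). The sum of the 7 genes was not raised in the groups of these tumors. It was 1757 to 2307 in the combination and 1489 to 1855 in the anti-PD-1 group of 4T1. In untreated and chitin-treated 4T1 tumors, it was 1923.5 to 2231 and 1669 to 2684. These ranges describe groups and do not give the sum in the tumors with the most muscle RNA.

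Of 25 further muscle genes outside the list, 19 were analysed. The sum of the 19 genes was 7834 to 17169 normalized counts in the combination and 6201 to 15377 in the anti-PD-1 group of 4T1. Without treatment, it was 9326.5 to 12627 in 4T1. In 66cl4, the sum was 8641 to 10749 in the combination (median 9528) and 10394 to 14962 without treatment (median 13280). All 66cl4 combination tumors, tumor 3 included, were thus below the untreated median. Klhl41 and Nrap (the latter for 4T1 only) are examples chosen after their values were seen and do not stand for all 19 genes. Klhl41, a sarcomere assembly factor, was at 168 and 160 normalized counts in 4T1 chitin + anti-PD-1 tumor 5 and anti-PD-1 tumor 3 (median over 4T1 16.6), and at 64.8 and 61.5 in 66cl4 chitin + anti-PD-1 tumor 3 and untreated tumor 3 (median over 66cl4 1.10). Nrap, a muscle attachment protein, was at 386 and 266 normalized counts in the same 4T1 tumors. The sum of the 8 white adipocyte genes did not peak there. It was 2407 and 2978 normalized counts in these 4T1 tumors against a highest sum of 15488 (4T1 anti-PD-1 group), and 535 and 383 in the 66cl4 tumors against 2736. The part of other tissues in the muscle levels was not tested.

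In the treatment comparisons, no member passed the test in any of the 6 comparisons with untreated tumors. Members were tested with limma, two-sided, with Benjamini-Hochberg adjustment over all 14318 genes, and the background was 0.0% of genes called in each of these comparisons. Counts by sign are given for description only, as most members rise in the same few tumors. In anti-PD-1-treated against untreated 4T1 tumors, 27 members were higher and 10 lower by sign, with a median difference of 0.15 VST units (range -0.42 to 0.50, median over all genes -0.000528). No member and 1273 of all genes had an unadjusted p under 0.05, and limma-voom called 0 genes as well. Acta1 differed by 0.35 (SE 0.895, limma adjusted p 0.927) and Ckm by 0.49 (SE 0.726, limma adjusted p 0.858). The members with the smallest p were Jph1, which couples the T-tubule to the reticulum, at 0.28 (SE 0.170, limma adjusted p 0.629), Tpm1 at -0.24 (SE 0.152, limma adjusted p 0.647) and the phosphoglycerate mutase Pgam2 at 0.28 (SE 0.243, limma adjusted p 0.738). Without anti-PD-1-treated tumor 3, the members' median was -0.17 with 4 of 37 higher, and without untreated tumor 4 it was 0.36 with 35 higher, so that single tumors set its direction.

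In chitin-treated against untreated 4T1 tumors, 33 members were lower and 4 higher by sign, with a median of -0.32 (range -0.94 to 0.50, all genes -0.00312). Again no member and 397 of all genes had an unadjusted p under 0.05, and limma-voom called 0 genes. Acta1 differed by -0.94 (SE 0.895) and Ckm by -0.54 (SE 0.726), both with a limma adjusted p of 1. Myh2 at -0.82 (SE 0.549), the Z-disc cross-linker Actn2 at -0.56 (SE 0.372) and the muscle enolase Eno3 at 0.50 (SE 0.285) had the smallest p, each with a limma adjusted p of 1. The members' median was -0.08 with 13 of 37 higher when untreated tumor 4 was left out, and -0.64 without untreated tumor 2, the tumor with the lowest muscle sum of its model.

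In chitin + anti-PD-1-treated against untreated 4T1 tumors, 33 members were higher and 4 lower by sign, with a median of 0.18 (range -0.11 to 0.46, all genes -0.000857). No member and 367 of all genes had an unadjusted p under 0.05, and limma-voom called 0 genes. Acta1 differed by 0.40 (SE 0.895), Ckm by 0.23 (SE 0.726), Tpm2 by 0.46 (SE 0.433), Eno3 by 0.39 (SE 0.285) and Jph1 by 0.23 (SE 0.170), each with a limma adjusted p of 1. Leaving out tumor 5 of the combination turned the members' median to -0.20 with 4 of 37 higher, and leaving out untreated tumor 4 raised it to 0.48. The untreated tumors are shared by the 3 comparisons of the model.

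In anti-PD-1-treated against untreated 66cl4 tumors, 34 members were lower and 3 higher by sign, with a median of -0.23 (range -0.71 to 0.10, all genes 0.00203). Here 2 members and 767 of all genes had an unadjusted p under 0.05, and limma-voom called 0 genes. Tpm1, a tropomyosin that many cell types make, differed by -0.32 (SE 0.101, limma adjusted p 0.895) and Eno3 by -0.23 (SE 0.0965, limma adjusted p 0.911), and Jph1 followed at -0.10 (SE 0.0613, limma adjusted p 0.911). Acta1 differed by -0.71 (SE 0.798, limma adjusted p 0.941) and Ckm by -0.32 (SE 0.482, limma adjusted p 0.957). Without untreated tumor 3, the members' median was 0.04, with 29 of 37 higher.

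In chitin-treated against untreated 66cl4 tumors, 35 members were lower and 2 higher by sign, with a median of -0.29 (range -1.01 to 0.02, all genes -6.44e-05). No member and 1639 of all genes had an unadjusted p under 0.05, and limma-voom called 0 genes. Acta1 differed by -1.01 (SE 0.798, limma adjusted p 0.663) and Ckm by -0.50 (SE 0.482, limma adjusted p 0.732). The members with the smallest p were the troponin I gene Tnni2 at -0.36 (SE 0.181, limma adjusted p 0.456), the giant elastic filament Ttn at -0.41 (SE 0.254, limma adjusted p 0.558) and the calcium buffer Pvalb at -0.34 (SE 0.216, limma adjusted p 0.576). The median was -0.03 with 16 of 37 higher without untreated tumor 3.

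In chitin + anti-PD-1-treated against untreated 66cl4 tumors, 34 members were higher and 3 lower by sign, with a median of 0.34 (range -0.07 to 0.99, all genes 0.00213). Only Myh2 among the members, and 1516 of all genes, had an unadjusted p under 0.05, and limma-voom called 0 genes. Myh2 was at 0, 2.44, 216, 47.3 and 241 normalized counts in the 5 combination tumors and differed by 0.84 (SE 0.380, limma adjusted p 0.451). Acta1 differed by 0.99 (SE 0.798, limma adjusted p 0.704), Ckm by 0.58 (SE 0.482, limma adjusted p 0.715), the actin-binding repeat protein Xirp2 by 0.72 (SE 0.375, limma adjusted p 0.519) and the muscle cytochrome oxidase subunit Cox6a2 by 0.17 (SE 0.0874, limma adjusted p 0.511). The members' median stayed above 0 whichever tumor was left out, from 0.13 without combination tumor 3 to 0.59 without untreated tumor 3.

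**Figure D4:**
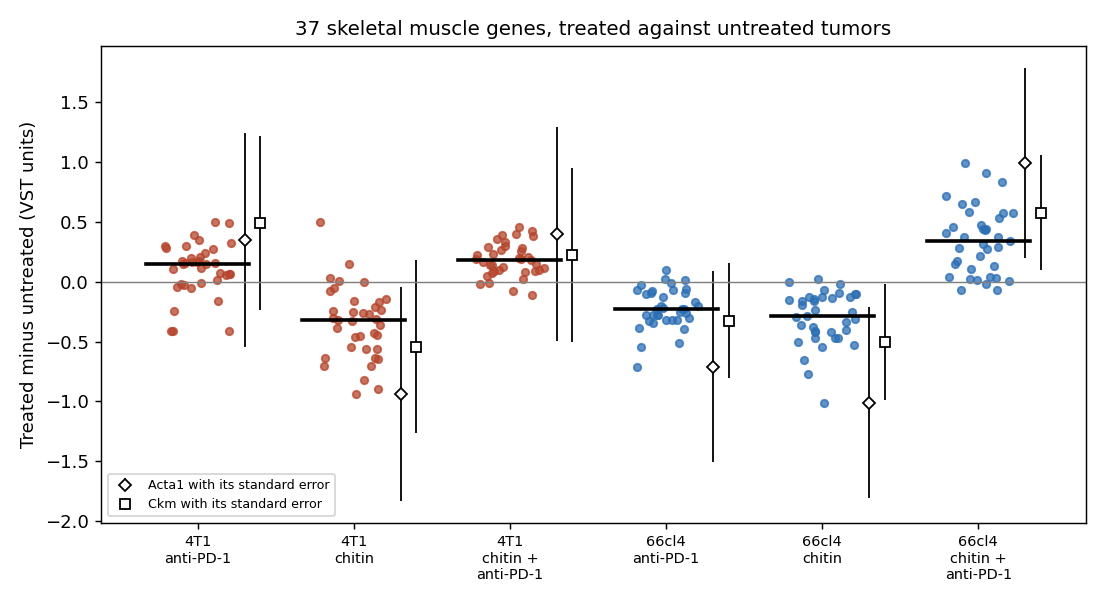
Difference between treated and untreated tumors (VST units) of the 37 skeletal muscle genes (points, with their median as a bar) in 6 comparisons, with Acta1 and Ckm and their standard errors beside them. Medians run from -0.32 (4T1, chitin) to 0.34 (66cl4, chitin + anti-PD-1), and the standard errors of Acta1 and Ckm are as wide as or wider than most of the differences.

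Taking both chitin-containing groups together against the untreated and anti-PD-1-treated tumors also called no member, with 0.0% of all genes called in either model. In 4T1, 31 members were lower and 6 higher by sign, with a median of -0.14 (all genes 0.00396). Eno3 was the 1 member with an unadjusted p under 0.05, as were 1042 of all genes (limma-voom called 0), and differed by 0.41 (SE 0.196, limma adjusted p 0.685). Tpm1 differed by 0.17 (SE 0.105) and Cox6a2 by -0.18 (SE 0.112), both with a limma adjusted p of 0.770. Acta1 differed by -0.45 (SE 0.615, limma adjusted p 0.930) and Ckm by -0.40 (SE 0.499, limma adjusted p 0.912). The median turned to 0.03 without anti-PD-1 tumor 3 and was -0.30 without chitin + anti-PD-1 tumor 5.

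In 66cl4, 30 members were higher and 7 lower by sign, with a median of 0.13 (all genes 0.00256). No member and 2238 of all genes had an unadjusted p under 0.05 (limma-voom called 0). Acta1 differed by 0.35 (SE 0.564, limma adjusted p 0.814), Ckm by 0.20 (SE 0.341, limma adjusted p 0.821) and Myh2 by 0.43 (SE 0.268, limma adjusted p 0.463). Myoglobin, encoded by Mb, differed by 0.19 (SE 0.131, limma adjusted p 0.526) and Xirp2 by 0.36 (SE 0.265, limma adjusted p 0.546). The median was 0.02 without combination tumor 3 and 0.26 without untreated tumor 3.

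The chitin-containing against other difference was itself compared between models. It called 0 of the 37 members, where 0.0978% of all genes were called (0.021% higher and 0.0768% lower), and no member had an unadjusted p under 0.05. By sign, 31 members had a lower difference in 4T1 than in 66cl4 and 6 a higher one, with a median of -0.26 (all genes 0.00653). Acta1 gave -0.79 (SE 0.876, limma adjusted p 0.763), Ckm -0.60 (SE 0.626, limma adjusted p 0.739), Eno3 0.40 (SE 0.210, limma adjusted p 0.415), Cox6a2 -0.23 (SE 0.130, limma adjusted p 0.456) and the Z-disc protein Ldb3 -0.28 (SE 0.210, limma adjusted p 0.616).

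Between models, most members were higher in 4T1 than in 66cl4 tumors. With the 4 treatment groups weighted equally, 28 of the 37 members rose in 4T1 (adjusted p under 0.05, limma over 8 groups) and 4 fell, against 78.8% of all genes called, 40.8% higher and 38.0% lower. The share called in both directions together was thus near the background, whereas the split by direction was not. By sign, 32 members were higher, with a median of 0.52 against 0.0147 for all genes. As most members rise in the same few tumors, a count by sign over them does not count independent results. The median stayed between 0.43 and 0.60 when any 1 tumor was left out. As the authors kept only genes with more than 10 counts in at least 10% of the cases, a member could enter the table through a few muscle-rich tumors alone, and these counts describe the members that entered. The tumors of the models did not overlap for 2 members, Eno3 and Jph1, where this was the case for 17.9% of all genes.

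Of the 7 thin filament members, all were called higher, as were 40.8% of all genes. Acta1 was at 8.74 in 4T1 and 7.24 in 66cl4 (difference 1.50, SE 0.438, limma adjusted p 0.00240). Tnnt3 showed the largest difference, 1.51 (SE 0.260, limma adjusted p 3.25e-06), with 45.0 to 959 normalized counts in 4T1 against a median of 2.47 and a range of 0 to 346 in 66cl4. It was still at 53.2 and 72.3 in untreated 4T1 tumor 2 and chitin-treated 4T1 tumor 5, where Acta1 was at 3.13 and 2.49. Its level in 4T1 thus did not follow muscle RNA in all tumors. Tnni2 of the same troponin complex ranged from 45.3 to 458 in 4T1 and from 41.5 to 231 in 66cl4 and differed by 0.33, Tnnc2 by 0.73, and Neb, the ruler of the thin filament, by 0.94. Tropomyosins differed by 0.26 (Tpm1, SE 0.0633, limma adjusted p 0.000445) and 0.80 (Tpm2, SE 0.178, limma adjusted p 0.000125). Tpm1 had 2038 to 4302 normalized counts in 4T1 and 1725 to 3146 in 66cl4, in all tumors and not only in those with muscle RNA.

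Of the 9 thick filament members, 8 were called higher in 4T1, as were 40.8% of all genes. Differences were 1.08 for Myh4 (SE 0.408, limma adjusted p 0.0161), 1.03 for Myh1 (SE 0.309, limma adjusted p 0.00317) and 0.63 for Myh2 (SE 0.240, limma adjusted p 0.0178). In 66cl4, Myh1 and Myh2 each had 0 reads in 9 of 20 tumors. Mybpc2 differed by 1.31 (SE 0.303, limma adjusted p 0.000201), Mybpc1 by 0.52, the essential light chain Myl1 by 0.61, Ttn by 0.50 and the M-band protein Myom1 by 0.24. The regulatory light chain Mylpf was at 4.69 to 349 normalized counts in 4T1 and 4.77 to 177 in 66cl4 (difference 0.29, limma adjusted p 0.146).

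Of the 7 Z-disc and attachment members, 5 were called higher, as were 40.8% of all genes. These were Des by 1.10 (SE 0.280, limma adjusted p 0.000619), Actn3 by 0.88, the titin cap gene Tcap by 0.57, and Actn2 and Ldb3 by 0.36 each. Tcap had 0 reads in 10 of 20 66cl4 tumors. The calcineurin-binding Myoz1 (difference -0.06, limma adjusted p 0.551) and Xirp2 (0.47, limma adjusted p 0.0536) did not pass the test. Des also moved with smooth muscle genes, of which 8 of 9 were higher in 4T1 and 1, Mylk, lower, with Acta2 differing by 2.24, and their part in the Des difference was not tested.

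Calcium-handling members split. Atp2a1, the reticulum calcium pump of fast fibres, was higher in 4T1 by 1.13 (SE 0.352, limma adjusted p 0.00427), the calcium release channel Ryr1 by 0.72, the voltage sensor Cacna1s by 0.52 and calsequestrin Casq1 by 0.32. Parvalbumin, which had 0 reads in 11 of 20 66cl4 tumors, differed by 0.28 (limma adjusted p 0.0571). Trdn (chr10:33083483-33476709, plus strand), which anchors calsequestrin to the release channel, fell by 1.24 (SE 0.154, limma adjusted p 5.92e-09), with 0 to 150.4 normalized counts in 4T1 and 37.1 to 359 in 66cl4. Its level in 66cl4 did not follow muscle RNA, as it was 68.6 and 63.0 in tumors 3 of the untreated and anti-PD-1 groups against a median of 136. In 4T1, by contrast, its highest levels, 150.4 and 148, were in the most muscle-rich tumors. Jph1 (chr1:16942104-17097922, minus strand) fell by 0.97 (SE 0.0626, limma adjusted p 4.55e-16), with 0 to 52.5 normalized counts in 4T1 and 54.9 to 99.2 in 66cl4.

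Energy and oxygen members split as well. Mb, the oxygen store of muscle, was at 7.48 in 4T1 and 6.37 in 66cl4 and rose by 1.12 (SE 0.141, limma adjusted p 8.66e-09), with 15.6 to 338 normalized counts in 4T1 and 0 to 46.8 in 66cl4. In untreated 4T1 tumor 2 and chitin-treated 4T1 tumor 5, Mb was still at 15.6 and 23.7, where Ckm was at 4.69 and 1.25. Ckm was higher by 0.78 (SE 0.313, limma adjusted p 0.0229), the glycogen phosphorylase Pygm by 0.53 and Pgam2 by 0.22. Without untreated 4T1 tumor 4, the Ckm difference was 0.66 with a limma adjusted p of 0.0516. Eno3 (chr11:70653125-70662513, plus strand) fell by 1.25 (SE 0.105, limma adjusted p 5.13e-13), from a 66cl4 range of 839 to 1445 normalized counts to a 4T1 range of 192 to 760.3. Cox7a1, an oxidase subunit of muscle and brown fat, fell by 0.24 (SE 0.0490, limma adjusted p 4.36e-05) at 0 to 14.1 normalized counts in 4T1 and 3.75 to 25.6 in 66cl4, and Cox6a2 did not pass the test (0.07, limma adjusted p 0.343).

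**Figure D5:**
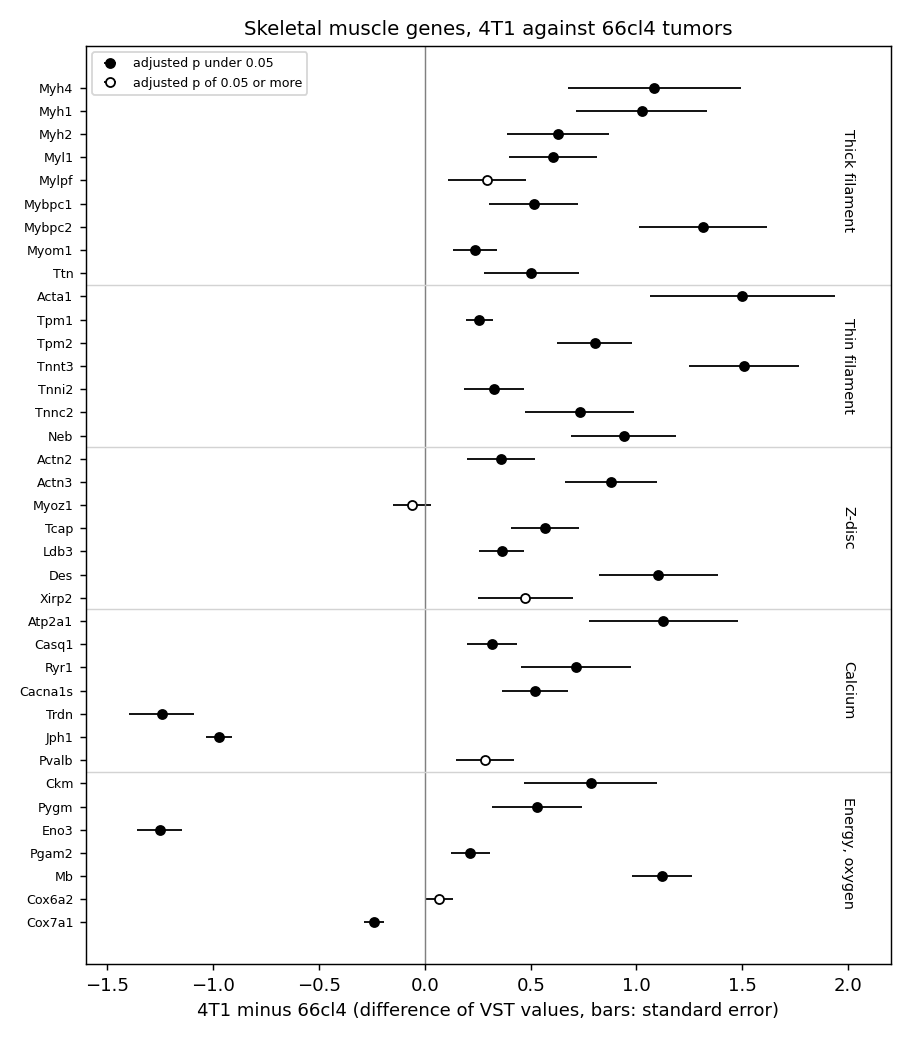
Difference of VST values between 4T1 and 66cl4 tumors with its standard error for the 37 skeletal muscle genes by role, filled where the limma adjusted p was under 0.05. Of the filled points, 28 lie above 0 and 4 below, the latter being Eno3, Trdn, Jph1 and Cox7a1.

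Gene lists beside the members gave the following in the same comparison, where 40.8% of all genes were called higher in 4T1 and 38.0% lower. Of the 19 further muscle genes analysed, 11 were higher and 3 lower in 4T1 (median 0.24), among them Klhl41 by 0.49 and the titin-binding Myot by 0.30, whereas Srl, Dmd and Klhl40 were the 3 lower genes. Of 19 counterparts that most cells use in place of a member, such as Ckb, Pygl and Pygb, 7 were higher and 6 lower (median 0.09). Pygl, the liver form of the phosphorylase, was higher by 0.70 and Pygb, its brain form, fell by 0.77. Tnnc1 and Myh7b of the slow fibre genes and all 4 regenerating or embryonic genes were higher, Tnnt2 by 4.10 (SE 0.142, limma adjusted p 6.25e-24), a larger difference than that of any member. Genes listed for other tissues moved in the same direction, with 7 of 8 white adipocyte and all 4 lactating epithelium genes analysed higher in 4T1. So were all 3 genes analysed of the skin list, Krt10, Krt5 and Krt14, of which Krt5 and Krt14 are not restricted to skin. Krt1, Lor and Flg of that list were not analysed here. The part of other tissues in the muscle difference was not tested.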

How the data were processed

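RNA-sequencing values of 39 primary tumors were analysed for 37 of 40 named skeletal muscle genes. The members and all gene lists were chosen with earlier results of these data known. The authors isolated RNA with RNeasy kits, prepared stranded libraries from 250 ng RNA, sequenced pairs of 150 bp, aligned reads to mm10 with HISAT2 and counted them per gene with summarizeOverlaps using strand. They kept genes with more than 10 counts in at least 10% of cases and applied a variance stabilizing transformation. Tool versions and the gene models behind the counts are not given in the sources used here. The deposited values are thus on a log2-like scale, and p-values measure the spread between tumors.

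The lowest value, 6.05, stands for 0 reads and fixes the transformation, so that it was inverted: 100% of values came out as whole reads (tolerance 0.001 reads), and the size factors equalled the median ratio in all 39 tumors. Normalized counts are these reads divided by the size factor. Exon lengths and coding sequences were taken from GENCODE M21, and gene positions and promoters from RefSeq (GRCm38.p6). Coding sequences were aligned with MAFFT 7.526.

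The deposited values were fitted gene by gene in R 4.3.3 using limma 3.58.1 (two-sided, eBayes with a mean-variance trend), within a model over its 4 groups or over all 8 groups, with Benjamini-Hochberg adjustment over 14318 genes (threshold 0.05). Fits were also tested on simulated data. In each comparison, Acta1, Ckm and the 3 members with the smallest unadjusted p are named, and Acta1, Ckm, Myh4 and Des are given in every tumor. Alternatives were no trend, robust estimation, a filter on the 25% of genes with the lowest mean, both models in 1 fit or only the groups compared, median centring, quantile normalization, array weights, limma-voom on the recovered reads, equal read depth, the tumor number as a block, and leaving out each tumor. The sum over all 37 members and the members' median without each tumor were added after the values were seen. No correlation across members and no test over the list was made. Untreated 4T1 tumor 3 was not analysed here. Other tools were Python 3.11.15, numpy 2.4.6, pandas 2.3.3, scipy 1.17.1 and matplotlib 3.10.9.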

Additional observations from a re-analysis of the deposited data

Results flagged for a closer look

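For the sum of 33 members and for 8 single members, the highest and the lowest tumor of each of the 8 groups was compared with the rest by Dixon's ratio. Of 72 such sets, 13 held a tumor further from the others than the 95% critical value. Chance gives about 1 in 20 for a single set. The sets are not independent, as members inside the sum are also taken singly and rise in the same tumors. The 13 can therefore not be set against that rate. The ratios were taken on the log2-like scale, while the levels below are normalized counts. With the ratio taken on normalized counts, an alternative added after the values were seen, 26 sets held such a tumor, 12 of them on both scales. Untreated 66cl4 tumor 3 stood apart for 6 of them, with 7069.3 normalized counts for the sum (383 to 551 in the other 4 tumors), 1278.5 for Acta1 (2.50 to 56.7), 329.73 for Ckm (0 to 11.6), 597.02 for Myh4 (1.15 to 12.9), 610.21 for Des (34.4 to 65.4) and 1444.6 for Eno3 (1012 to 1100). Anti-PD-1-treated 66cl4 tumor 3 stood apart for 4, with 1485.1 for the sum (384 to 430.0), 204.35 for Acta1 (0 to 8.99), 59.403 for Ckm (2.50 to 3.85) and 104.55 for Myh4 (0 to 1.28). Chitin-treated 4T1 tumor 5 had the lowest sum of its group, 896.2 (1781 to 2130 in the others, 2129.6 being the highest). Trdn was at 150.43 in chitin + anti-PD-1-treated 4T1 tumor 5 (4.09 to 20.2 in the others), and at 37.052 in chitin-treated 66cl4 tumor 2 (124 to 175 in the others). The combination group of 66cl4 gave no such tumor for Acta1 on the log2-like scale, and 3 of its 5 tumors were high.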

How the results depend on the processing

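No member was called in the 8 treatment comparisons or in the comparison of chitin differences between models under any alternative, limma-voom and equal read depth included. Of the alternative values of single named genes, 1649 kept direction and call, 11 turned direction and 1 lost its call (Ckm between models without untreated 4T1 tumor 4, 0.66, limma adjusted p 0.0516). Counts over all genes moved where members did not. Array weights gave 960 (anti-PD-1) and 297 (chitin-containing) genes in 4T1, 185 (chitin-containing) in 66cl4 and 1004 for the difference between models. Both models in 1 fit gave 60, 3 and 58 in 4T1 (anti-PD-1, combination, chitin-containing) and 1 in 66cl4 (chitin-containing). The filter on low values gave 6 (66cl4 chitin-containing) and 8 (difference between models), and quantile normalization 39 for the latter. Between models the filter left 10 members, all called, and removed 27. The other settings without a tumor left out called 25 to 34 members. Without single tumors, counts over all genes ranged 0 to 80 (4T1 anti-PD-1, highest without anti-PD-1 tumor 2), 0 to 1 (4T1 chitin-containing), 0 to 25 (66cl4 chitin) and 0 to 269 (66cl4 chitin-containing, both highest without untreated tumor 3), 0 to 3 (66cl4 combination), 0 to 677 (difference between models, highest without 4T1 anti-PD-1 tumor 2), and members called between models 24 (without untreated 4T1 tumor 4) to 34. Differences that turned direction without single tumors ranged from -0.45 to 1.03 (Acta1) and -0.0931 to 0.97 (Ckm) for anti-PD-1 in 4T1, -0.41 to 1.08 and -0.30 to 0.70 for the combination in 4T1, and -1.11 to 0.0509 and -0.53 to 0.16 for anti-PD-1 in 66cl4. Tumors with the same number were not treated as paired in the main fits. Over 27 such pairs in 4T1, their deviations over all genes correlated from -0.39 to 0.45 (11 pairs over 0.1, median -0.0175, other numbers 0.00402). Over 30 pairs in 66cl4, the range was -0.30 to 0.54 (11 over 0.1, median 0.0257, other numbers -0.0137). In 4T1, 3 of 19 tumors correlated best with their own number, and in 66cl4 8 of 20. Whether the numbers pair the tumors was not settled. Tumor 3 had the highest 33-gene sum in all 4 groups of 66cl4 (7069, 1485, 473 and 8297 normalized counts). With the tumor number as a replicate block, counts were 1 (4T1 combination), 2, 7 and 16 (66cl4 chitin, combination, chitin-containing) and 104 (difference between models), members called between models 34, and Ckm -0.0215 for the combination in 4T1. The causes of these shifts were not tested. Depth limits members at a few reads, where the compressed scale leaves small differences undetectable.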
